A study of Rattus norvegicus with 2 samples.

Results

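The 8-oxoG-rich fragments described here are the 1 Mb pieces of the rat autosomes in which the 8-oxoG level was raised in both rats of the series. Chromosomes 1 to 20 of assembly rn4 were divided into non-overlapping 1 Mb fragments counted from the first base. A fragment was taken as rich if it held at least 20 probes and its mean level exceeded 0.25 on both arrays. This rule was met by 346 of 2543 autosomal fragments with at least 20 probes (13.6%), and the whole profile, including chromosome X, had 2731 fragments with at least 1 probe. The fragments were thus chosen by their mean 8-oxoG levels on both arrays, and these levels are given as a description, with no test.

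Both rats belong to 1 group of untreated, normal male rats of the Wistar strain (written Wister in the labels), 5 weeks old. From the kidney of each rat, digested DNA was precipitated with the 8-oxoG antibody N45.1 and labelled with Cy5, while Cy3 marked the input DNA of the same animal, which had not been precipitated. Each pair was hybridised to 1 Agilent Rat Genome CGH array. With 1 array per rat, a difference between rats cannot be told apart from one between arrays. Kidney tissue was homogenised, so the levels are averages over the cells in the piece taken, and with Cy5 on the IP DNA of both arrays, dye and IP cannot be told apart. The level of a probe is log2(IP/input) after subtraction of the median of the array. A level of 0 therefore marks a probe in the middle of its array, which may still carry 8-oxoG. Signals well above background were found for 83.1% to 86.9% of the spots per channel, and with 2 arrays the precision is limited by their number.

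8-Oxoguanine is the oxidised form of guanine that arises when reactive oxygen species attack DNA or the nucleotide pool. It can pair with adenine as well as with cytosine, and unrepaired residues lead to G-to-T transversions. The glycosylase OGG1 removes it from DNA in the first step of base excision repair, MUTYH removes adenine placed opposite to it, and MTH1 cleans the nucleotide pool. Mammalian chromosomes are divided into domains on the megabase scale that differ in gene content, base composition and compaction, and an average over 1 Mb reads such domains rather than single genes.

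Levels of the 346 rich fragments ranged from 0.25 to 0.87 on replicate 1, with a median of 0.50. On replicate 2 they ranged from 0.25 to 0.82, with a median of 0.37. The rich fragments therefore lay closer to the threshold on the second array. In the 1929 remaining fragments, which were neither rich nor below -0.25 on both arrays, the medians were -0.04 on replicate 1 and -0.11 on replicate 2. In the 268 depleted fragments, those below -0.25 on both arrays (10.5%), they were -0.33 and -0.34. Averaged over both arrays, 229 rich fragments were above 0.4, 96 were above 0.5 and 28 were above 0.6. On the array where they were lower, 110 were above 0.4 and 13 were above 0.6. The lower array cannot exceed the mean of both, so smaller numbers on it are largely set by that choice.

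**Figure D1:**
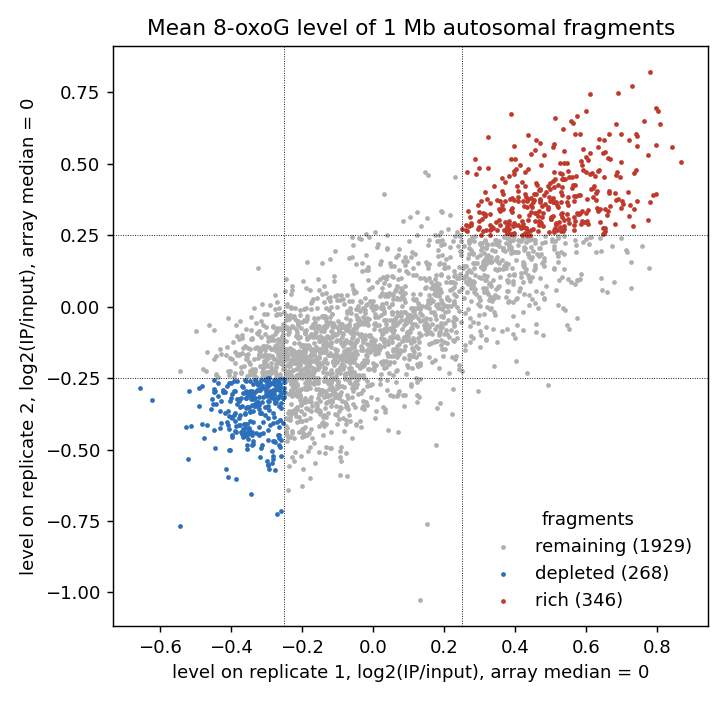
Mean 8-oxoG level of each autosomal 1 Mb fragment on replicate 1 (horizontal axis) and replicate 2 (vertical axis), as log2(IP/input) with the array median at 0; dotted lines mark 0.25 and -0.25. The 346 rich fragments occupy the upper right corner, with a higher median on replicate 1 (0.50) than on replicate 2 (0.37), and many grey fragments lie beyond the threshold on replicate 1 alone.

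At the threshold the division was fine. The 3 rich fragments just inside it were chr13:4000001-5000000, with 0.42 on replicate 1 and 0.25 on replicate 2, chr1:254000001-255000000, with 0.43 and 0.25, and chr1:147000001-148000000, with 0.31 and 0.25. The 3 fragments just outside it had 0.248, 0.248 and 0.247 on replicate 2, and 0.40, 0.37 and 0.54 on replicate 1. They were chr2:238000001-239000000, chr16:28000001-29000000 and chr6:5000001-6000000, in that order. In each of these 6 fragments replicate 2 set the side on which the fragment fell.

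The highest of the rich fragments, ranked by the array on which each was lower, was chr15:97000001-98000000. It reached 0.78 on replicate 1 and 0.82 on replicate 2, and its mean of 0.80 ± 0.03 (SD, n = 2) rested on 48 probes. It was followed by chr7:84000001-85000000, with 0.73 and 0.77, and by chr2:134000001-135000000, with 0.80 and 0.70. In these 3 fragments the SD between arrays was 0.07 at most. The ranking on the lower array itself requires high levels in both rats, and it favours a small SD. Next were chr2:72000001-73000000 (0.69 and 0.75) and chr2:129000001-130000000 (0.80 and 0.68). Ranks 6 to 10 were taken by chr1:10000001-11000000 (0.76 and 0.65), chr15:75000001-76000000 (0.81 and 0.64), chr11:47000001-48000000 (0.69 and 0.64), chr7:85000001-86000000 (0.61 and 0.75) and chr2:16000001-17000000 (0.70 and 0.61). Chromosome 2 thus held 4 of the 10 highest fragments, and chromosomes 7 and 15 held 2 each. These 10 fragments were sparsely covered, with 32 to 53 probes.

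Within the 5 highest fragments, the probe with the highest level on its lower array, among probes well above background, was read singly. The highest fragment had this probe at chr15:97204692-97204751, where the levels were 2.17 and 2.11. In the next fragment it was at chr7:84772086-84772145, where the arrays gave 1.94 and 2.60. The single probe levels were far above the fragment averages, which is set by the choice of the highest probe. On the highest fragment, 33 of 48 probes (68.8%) were above 0 on both arrays, and on the second 26 of 46 (56.5%). In the other 3 fragments the highest probes were at chr2:134299604-134299663 (1.68 and 1.57), chr2:72417998-72418057 (1.74 and 2.62) and chr2:129216656-129216715 (2.48 and 2.61).

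To read the level on an array that took no part in the choice, the rule was applied to each array alone. On replicate 1, 690 of the 2543 fragments (27.1%) were above 0.25. These had a median of 0.25 on replicate 2, where 346 of them (50.1%) were above 0.25 and 641 (92.9%) were above 0. On replicate 2, 367 fragments (14.4%) were above 0.25. Their median on replicate 1 was 0.49, and 346 of them (94.3%) were above 0.25 there. The number of rich fragments was therefore set mainly by replicate 2. Fragments that replicate 1 did not choose were above 0.25 on replicate 2 in 21 of 1853 cases (1.13%). The 50 highest fragments on replicate 1 had a median of 0.40 on replicate 2, with a lowest value of 0.07 and 41 of them above 0.25. The 50 highest on replicate 2 were all above 0.25 on replicate 1, with a median of 0.61. Neighbouring fragments share their surroundings, so these counts are over positions and not over replicates.

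Rich fragments were unevenly spread over the chromosomes. They made up 23.9% of the fragments of chromosome 11, 23.2% of chromosome 13, 22.6% of chromosome 15 and 21.4% of chromosome 14, against 13.6% of all autosomal fragments. The largest number, 46, lay on chromosome 2, which is long, and there they made up 18.0%. At the other end, chromosome 12 had none among 46 fragments, chromosome 10 had 1 among 111, and chromosome 17 had 4 among 95. The fragment on chromosome 10, chr10:24000001-25000000, had 0.48 on replicate 1 and 0.28 on replicate 2 over 99 probes. The 4 on chromosome 17 had levels of 0.26 to 0.55 on replicate 1. On replicate 2 they had 0.26 to 0.29, close to the threshold. They were chr17:5000001-6000000, chr17:43000001-44000000, chr17:44000001-45000000 and chr17:55000001-56000000. These 5 fragments were singled out after their values had been seen. The median level of the rich fragments of a chromosome, which the threshold bounds from below, ran from 0.32 on chromosome 17 to 0.49 on chromosome 13.

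**Figure D2:**
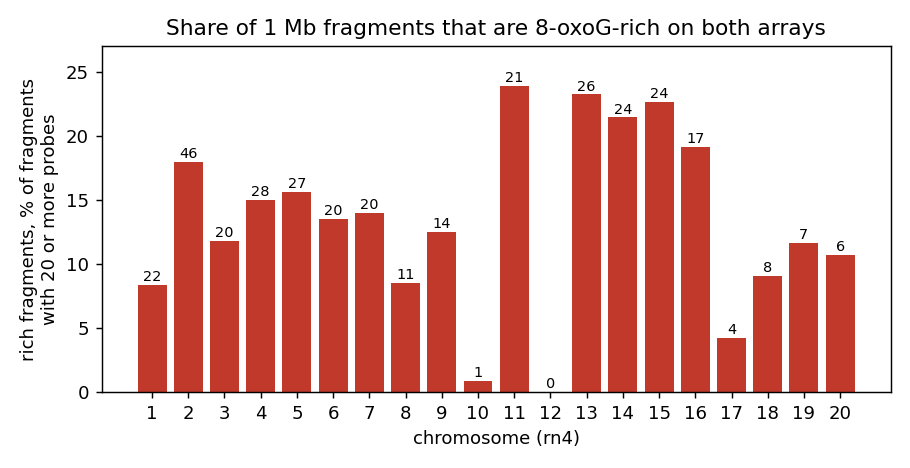
Rich fragments as a percentage of the 1 Mb fragments with at least 20 probes on each autosome; the number above a bar is the number of rich fragments. Chromosomes 11, 13, 14 and 15 exceed 20%, while chromosome 12 has 0 and chromosome 10 has 1.

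Along the chromosomes, the share of rich fragments was 16.6%, 16.0% and 19.8% in the first 3 of 5 equal parts of a chromosome, counted from base 1, and 8.09% and 7.71% in the last 2 parts. It was 12.4% within 3 Mb of a chromosome end (17 of 137 fragments) and 14.0% at 10 Mb or more from both ends. The distal parts thus held fewer rich fragments, whereas the ends themselves were close to the share over all fragments.

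Rich fragments often lay side by side. The 346 fragments formed 196 stretches, of which 118 were single fragments, 37 were 2 Mb long and 41 were 3 Mb or longer. Stretches of at least 3 Mb held 154 rich fragments (44.5%). Their levels were higher than those of single fragments, with medians of 0.53 and 0.39 on replicates 1 and 2, against 0.46 and 0.32. The number of probes was alike, with a median of 51 in the long stretches and 50 in single fragments.

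The longest stretch was chr7:80000001-87000000, over 7 Mb and 372 probes, with a level of 0.57 on replicate 1 and 0.52 on replicate 2. From its start, the 7 fragments had 0.38, 0.53, 0.77, 0.47, 0.73, 0.61 and 0.48 on replicate 1. On replicate 2 they had 0.46, 0.47, 0.30, 0.57, 0.77, 0.75 and 0.35. The arrays differed most in the third fragment, chr7:82000001-83000000, where replicate 1 was high and replicate 2 was near the threshold. The fragments directly before and after this stretch both had 0.33 on replicate 1, and 0.08 and 0.03 on replicate 2.

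Of the other long stretches, chr14:51000001-57000000 and chr16:40000001-46000000 were 6 Mb long. The level of the former was 0.59 on replicate 1 and 0.42 on replicate 2, and that of the latter was 0.58 and 0.41. Stretches of 5 Mb were chr2:68000001-73000000 (0.59 and 0.49), chr3:81000001-86000000 (0.60 and 0.47) and chr13:15000001-20000000 (0.65 and 0.41). Replicate 1 was higher in all of these 5 stretches. The fragments next to them were above 0 on replicate 1 on both sides, from 0.05 to 0.78, and between -0.14 and 0.19 on replicate 2. In 8 of these 10 neighbouring fragments replicate 1 alone was above 0.25. Exactly 1 array was above 0.25 in 176 of the 348 fragments next to any stretch, and in 365 of all 2543 fragments. A neighbour above 0.25 on both arrays would belong to the stretch, so the counts of neighbours are partly set by the rule.

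The levels fell gradually outside the stretches. The 348 fragments directly next to a stretch had medians of 0.25 on replicate 1 and 0.05 on replicate 2. Both arrays were above 0 in 203 of them (58.3%), against 33.1% of all autosomal fragments. At a distance of 5 Mb the medians were 0.08 and -0.05, and at 10 Mb they were 0.03 and -0.07. The medians of all fragments were a little lower, at -0.03 and -0.09. These sets are not alike, since the directly neighbouring fragments include no rich ones by definition. Rich fragments of other stretches made up 62 of the 357 fragments at 5 Mb and 63 of the 351 at 10 Mb. Of all fragments, 13.6% were rich. Since every rich fragment of a stretch is inside it by definition, the step at the edge is partly set by the rule. A depleted fragment lay directly next to a rich one in 6 cases, with 1 depleted fragment counted from both sides. Of the 348 directly neighbouring fragments 5 were depleted (1.44%), against 268 of all 2543 fragments (10.5%). On chromosome 20, chr20:41000001-42000000, with -0.33 and -0.27, lay between 2 rich fragments, chr20:40000001-41000000 (0.47 and 0.29) and chr20:42000001-43000000 (0.36 and 0.40). Of these 6 cases the largest change on replicate 2 was on chromosome 11, from 0.25 in chr11:74000001-75000000 to -0.73 in the fragment before it, with 0.39 and -0.27 on replicate 1. These examples were chosen after their values had been seen.

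**Figure D3:**
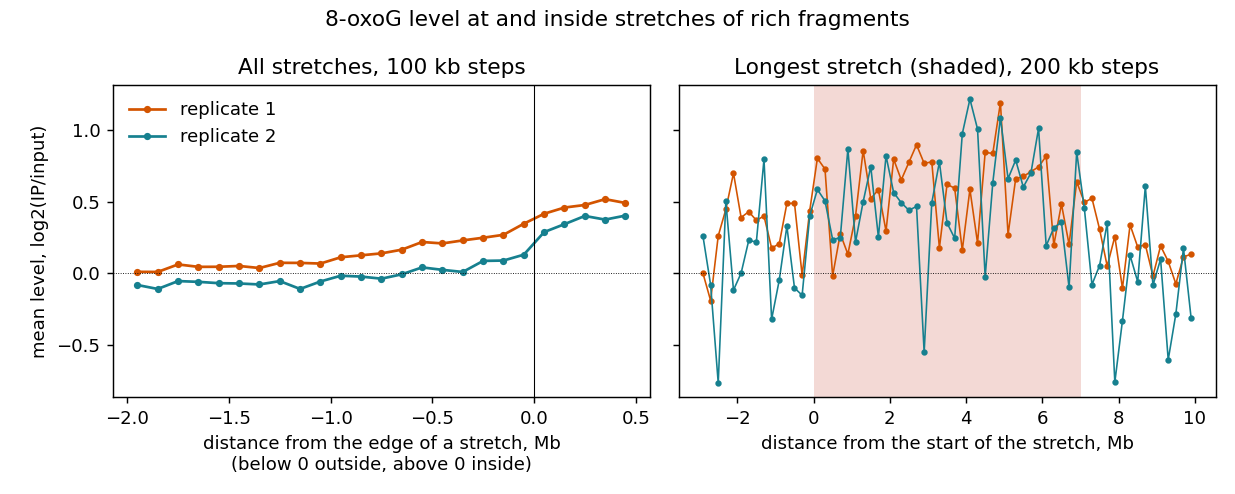
Left, mean probe level in 100 kb steps by distance from the edges of all 196 stretches (below 0 outside, leaving out other rich fragments; above 0 inside), for each array. In this panel replicate 1 stays above replicate 2 outside the edges, from 0.34 against 0.13 in the first 100 kb to 0.0086 against -0.08 at 2 Mb. Right, 200 kb averages along the longest stretch (shaded) and 3 Mb on both sides, where the order of the arrays changes from piece to piece.

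The averages were carried by many probes. The levels of these probes chose the fragments, so an upward shift against the remaining fragments is largely set by the rule. The rich fragments held 21966 probes, of which 70.8% were above 0 on replicate 1 and 65.8% on replicate 2. In both rats 52.7% of them exceeded 0 and 16.1% lay below it, whereas in the remaining fragments these shares were 30.6% and 32.0%. Levels above 1 on both arrays were found for 15.6% of the probes in rich fragments, 5.25% in the remaining fragments and 1.52% in depleted ones. The whole distribution was displaced, with quartiles of -0.12 and 1.13 in rich fragments on replicate 1, against -0.60 and 0.55 in the remaining ones. The SD over probes was nearly the same, at 0.93 and 0.94 on replicate 1 and at 1.15 and 1.23 on replicate 2. In single rich fragments the share of probes above 0 on both arrays ranged from 36.0% to 76.2%, with a median of 52.8%. The highest share was found in chr19:59000001-60000000, which had the fewest probes of all rich fragments, 16 of 21. Its level was 0.44 on replicate 1 and 0.54 on replicate 2.

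Probes of the rich fragments also differed from each other in the same way in both rats. After subtraction of the mean of each fragment, Pearson's r between the arrays was 0.42 over the probes of rich fragments, 0.31 over those of the remaining fragments and 0.25 over those of depleted ones. These correlations are across probes of the same 2 arrays, which are not independent replicates, and the probes share their brightness on both arrays.

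At a finer scale not all parts of the rich fragments passed the threshold. Division into 200 kb pieces gave 1673 pieces with at least 5 probes, with medians of 0.51 and 0.39 on replicates 1 and 2. The pieces exceeded 0 in both rats in 85.1% of cases and 0.25 in 59.1%, against 27.3% and 10.2% in the remaining fragments. The pieces hold the probes that chose the fragments, so higher shares are largely set by the rule. In 308 rich fragments all 5 pieces could be read. Of these, 134 had all 5 pieces above 0 on both arrays, 120 had 4, 46 had 3 and 8 had 2. A level above 0.25 on both arrays in all 5 pieces was found in 18 fragments only. With division into 500 kb parts, 338 rich fragments had at least 10 probes in each part. Both parts passed 0.25 on both arrays in 169 of them, only 1 part did so in 163, and neither did in 6. Passing in both 500 kb parts and in only 1 of them was thus about equally frequent. A part or piece holds fewer probes than its fragment, so its mean is less precise. Whether this takes part in the values below 0.25 was not tested.

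The probes of the array were sparse in the rich fragments, a property that the rule did not use except for the minimum of 20. The median number of probes was 51 in rich fragments, with quartiles of 46 and 75.8. It was 83 in the remaining fragments and 106.5 in depleted ones. Among the 478 fragments with 20 to 50 probes, 171 were rich (35.8%), and among the 627 with more than 110 probes 23 were rich (3.67%). The median distance between probe starts within a fragment was 17450 bases in rich fragments, 8600 bases in the remaining ones and 6389 bases in depleted ones. The longest gap between probes was alike, with medians of 42270 and 41712 bases in rich and remaining fragments. Probes were thus farther apart within rich fragments, while their longest gaps were of like size. Probes shorter than 60 bases, the standard length of the array, made up 3.79% of the probes in rich fragments, 10.5% in the remaining ones and 14.8% in depleted ones. Whether probe number and length take part in the level was not tested.

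The level is a ratio, so both channels were read separately, each as log2 intensity with the array median at 0. The rich fragments were dim in both channels. Their median input brightness was -1.12 on replicate 1 and -1.20 on replicate 2, against -0.18 on both arrays in the remaining fragments. Their median IP brightness was -0.63 on replicate 1 and -0.77 on replicate 2, against -0.23 and -0.25. Input in the rich fragments was therefore lower by 0.98 on average, and IP was lower too, but by less. Both channels were below the median of all fragments on both arrays in 289 of the 346 rich fragments (83.5%). The IP channel was above it on both arrays in 39 (11.3%). In depleted fragments, input was at 0.06 and 0.08, and IP, at -0.29 and -0.22, was near that of the remaining fragments. Well above background on all channels and arrays were 70.7% of the probes in rich fragments, 79.8% in the remaining ones and 80.5% in depleted ones.

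**Figure D4:**
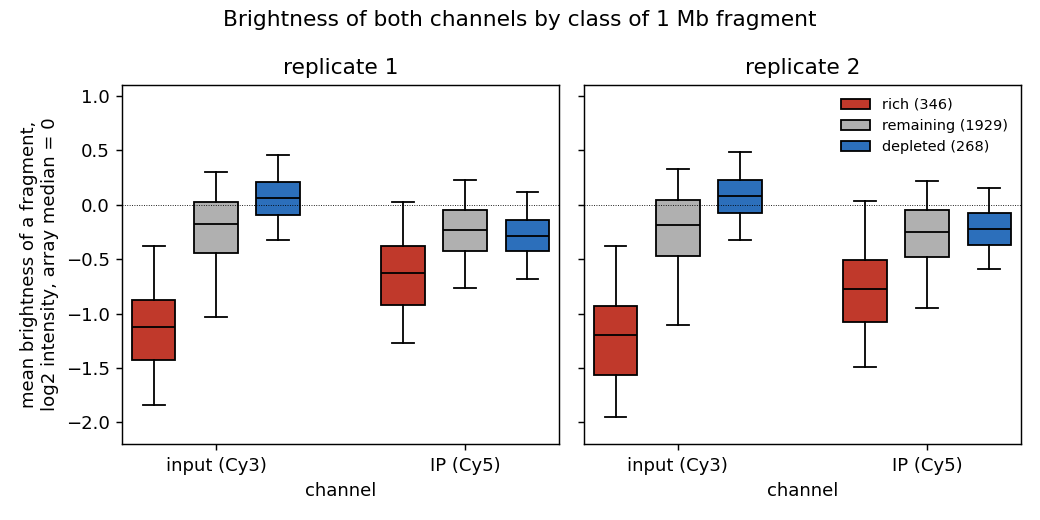
Mean brightness of 1 Mb fragments in the input (Cy3) and IP (Cy5) channel, as log2 intensity with the array median at 0; boxes show quartiles with the median, whiskers the 5th and 95th percentiles. Rich fragments are dimmer than the remaining ones in both channels of both arrays, with input medians of -1.12 and -1.20 and IP medians of -0.63 and -0.77.

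A few rich fragments had bright probes instead. The 3 in the decile of fragments with the brightest input were chr1:75000001-76000000, chr6:139000001-140000000 and chr7:18000001-19000000, singled out after their values had been seen. In chr6:139000001-140000000 the input brightness was 1.87 and 1.79 and the IP brightness was 2.43 and 2.26, with levels of 0.56 and 0.41 over 49 probes. In chr1:75000001-76000000 the levels were 0.74 and 0.48, and in chr7:18000001-19000000 they were 0.40 and 0.56. A low input was left out by the choice of the brightest decile. A high IP signal in these 3 fragments is therefore set by that choice and by the rule.

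Across all 2543 fragments the level fell with input brightness. In the decile of fragments with the dimmest input, 177 of 255 were rich (69.4%), and in the next decile 110 of 254 (43.3%). Deciles 3 and 4 held 33 and 11 rich fragments, and the other 6 deciles held 15 together. Pearson's r between level and input brightness over the fragments was -0.75 on replicate 1 and -0.74 on replicate 2. Input is the denominator of the level, which by itself gives a negative correlation. With the input read on the array of the other rat, r was -0.75 for the level on replicate 1 and -0.73 for that on replicate 2. Input brightness of the same fragments had a correlation of 0.996 between the arrays, so the other array does not remove what the probes themselves share. Among the 234 fragments whose input was below the median of the rich fragments on both arrays, 167 were rich, 66 were among the remaining fragments and 1 was depleted.

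Probe levels were also described by input brightness. Probes were ranked by the input of the other array and divided into 5 equal groups. In the dimmest group, the mean level on replicate 1 was 0.57 for probes of rich fragments and 0.23 for those of the remaining fragments. In the second group it was 0.78 and 0.19, and in the brightest -0.14 and -0.38. On replicate 2 the dimmest group had 0.65 and 0.29 and the brightest -0.43 and -0.62. The means for rich fragments exceeded those for the remaining fragments by 0.18 to 0.59 over the 5 groups and both arrays. These are the probe levels that chose the fragments, so a difference in this direction is largely set by the rule. Among the brightest probes, the means for rich fragments were below 0. Of all probes in rich fragments, 32.9% fell into the dimmest group by the input of replicate 2, and 10.6% into the brightest.

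**Figure D5:**
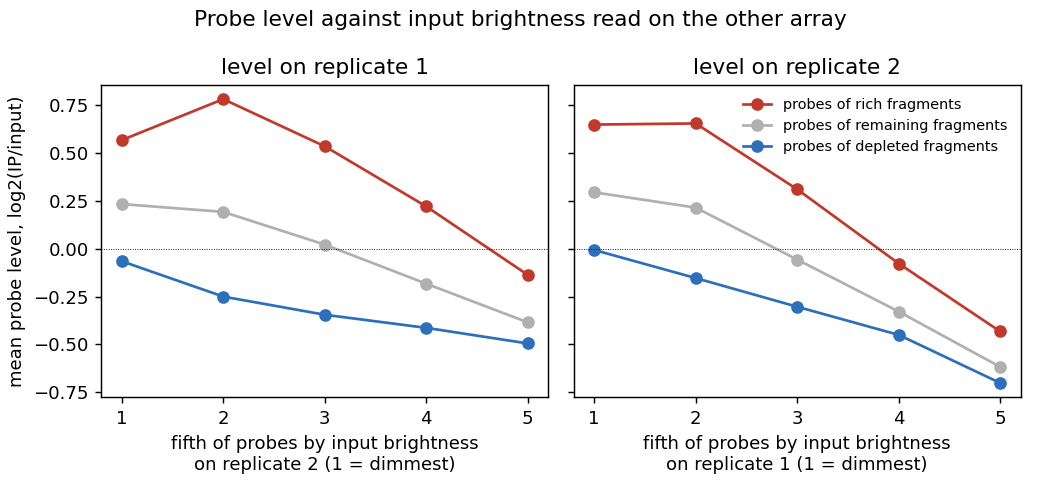
Mean probe level, log2(IP/input), in 5 equal groups of probes ranked by input brightness on the array of the other rat, for probes of rich, remaining and depleted fragments. Levels fall with brightness from the second group on, and probes of rich fragments, which their own levels chose, lie 0.18 to 0.59 above those of the remaining fragments.

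Removal of this trend, by subtraction of the median level of autosomal probes with like input on the same array, left 191 fragments above 0.25 on both arrays, of which 188 were among the 346. All 346 stayed above 0 on both arrays, with medians of 0.41 and 0.26. With the input of the other array, 176 fragments passed, 174 of them from the 346. The order of the fragments changed less than their number. Of the 346 fragments highest on their lower array after removal of the trend on the same array, 313 were rich by the rule.

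Of the settings tried, the one with normexp moved the number of rich fragments most. It started from the median spot signals, with normexp background correction and an offset of 50, and so also left out the detrending and dye normalization of the processed signals. The part of each of these steps was not tested. In this setting no fragment was above 0.25 on both arrays, and the median levels of the 346 fragments were 0.05 and 0.01. The levels were less spread in this setting. The SD over fragments was 0.09 on replicate 1 and 0.03 on replicate 2, against 0.30 and 0.26 in the main processing. Under normexp, 248 of the 346 still exceeded 0 in both rats, and 24 lay below it in both. The 346 highest fragments by their lower array included 233 of the rich ones. Before dye normalization, by contrast, the medians were 0.60 and 0.50, and 500 fragments passed, 340 of them among the 346. That setting also left out, on each array, spots without a background-subtracted signal above 0 in both channels. Whether this takes part in the difference was not tested.

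The 2 arrays, 1 per rat, differed in the rich fragments mostly in 1 direction. Replicate 1 was higher in 280 of the 346 (80.9%). It was also higher in 1327 of the 1929 remaining fragments (68.8%) and in 156 of the 268 depleted ones (58.2%). The median difference in rich fragments was 0.11, close to the 0.10 of the remaining fragments. The arrays were within 0.1 of each other in 144 rich fragments and over 0.3 apart in 30. The 3 that differed most were chr7:82000001-83000000 (0.77 on replicate 1 and 0.30 on replicate 2), chr8:15000001-16000000 (0.73 and 0.28) and chr6:18000001-19000000 (0.78 and 0.37). Each of these had its higher value on replicate 1. The median SD between the arrays was 0.09 (n = 2) in rich fragments, 0.11 in the remaining ones and 0.04 in depleted ones. Rich and depleted fragments were both chosen by their levels on both arrays. Their median numbers of probes were 51 and 106.5. Whether the choice or the number of probes takes part in the smaller SD of depleted fragments was not tested.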

How the data were processed

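Kidney DNA of 2 rats was measured on 1 array of 2 colours each. The authors deposited processed intensity values of both channels, made with Agilent Feature Extraction 10.5.1.1 (background subtraction with a spatial detrend, then dye normalization), and intensity values before dye normalization with flags per spot, and ratios with p-values per spot, which were not used. They also deposited a table of log2 values, which equals log2 of processed red over green intensity (largest difference 6.22e-15) and is not centred. Control spots and 305 flagged spots were left out, spots of a probe were averaged (235872 probes), and log2(IP/input) was centred on each array's median. Probes were assigned to fragments by their start on rn4.

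The members and lists were chosen with earlier results of these data known. Since the levels chose the members, no test was made. Averaging and stretches were tested on simulated data. For averaging, strongly shifted fragments of at least 50 probes were used, with noise drawn separately for each array. This checks the computation and does not cover fragments near the threshold or with fewer probes. Named fragments follow a rule: the 10 highest by the lower array, the longest stretches (6, as 3 tie at 5 Mb), those next to the threshold, the 3 that differ most between rats and the one with fewest probes. The number of arrays, 2, limits the precision. Alternatives changed the threshold, probe minimum, grid, fragment size, background correction (normexp, offset 50), dye normalization, dim or flagged spots, averaging, the trend on input and the arrays used. Numbers of genes, gene lists and base composition were planned and not run, since neither a genome nor an annotation of rn4 was used here. Normexp was run on median signals (limma 3.58.1, R 4.3.3). Other steps used Python 3.11.15, numpy 2.4.6, pandas 2.3.3 and matplotlib 3.10.9.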

Additional observations from a re-analysis of the deposited data

How the results depend on the processing

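The number of rich fragments (346) was 446 at a threshold of 0.2 and 245 at 0.3, 345 on a grid shifted by 500 kb and 355 with probes well above background only. It moved by more than 1.5 times with at least 50 probes (189), normexp (0), removal of the trend on input on the same array (191) or the other array (176), 500 kb fragments (750) and 2 Mb fragments (126), where the number of fragments itself differs (5053 and 1282, of which 14.8% and 9.83% were rich). With single replicates it ranged from 367, without replicate 1, to 690, without replicate 2. The 41 stretches of at least 3 Mb became 26 at a threshold of 0.3, 62 before dye normalization, 13 and 9 with the trend removed, and 0 with normexp. The median level of 0.44 moved beyond the spread between rats with normexp (0.030), before dye normalization (0.55) and with the trend removed by the other array (0.33), and ranged from 0.37 to 0.50 with single replicates. The share of probes above 0 on both arrays (52.7%) was 56.6% before dye normalization and 47.7% and 48.2% with the trend removed. The difference in input brightness (-0.98) was -0.53 in the raw green signal and -1.02 to -0.94 with single replicates, and that in probes per fragment (-32) was -18 with at least 50 probes. Of the rich fragments named, the means of chr1:254000001-255000000 and chr1:147000001-148000000 fell below 0 with normexp, to -0.030 and -0.0048. The mean of both arrays of the other 15 rich fragments named stayed above 0 under normexp, before dye normalization, with bright probes only and with medians, although under normexp 3 of them were below 0 on replicate 2 (chr7:82000001-83000000, chr6:18000001-19000000 and chr2:16000001-17000000, at -0.0042, -0.0040 and -0.0059). Leaving normexp aside, 140 of the 346 fragments stayed rich in all 7 other settings of the ratio, its centring, its flags, its probes and its trend. The cause of these shifts was not tested. Both removals of the trend, normexp and dye normalization for the stretches, and dye normalization and single replicates for input brightness were chosen after seeing the data. Gene lists and base composition were not run. No paired analysis was possible because both arrays form 1 group.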

Other observations

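Outside the rule, 5 of the 159 fragments of chromosome X with at least 20 probes were above 0.25 on both arrays. Counted on each array separately, 40 of the 159 were above 0.25 on replicate 1 and 5 on replicate 2. Both counts include the 5 above 0.25 on both arrays. Among the 2543 autosomal fragments with at least 20 probes, 13.6% passed on both arrays, 27.1% on replicate 1 and 14.4% on replicate 2. Of the 27 autosomal fragments with fewer than 20 probes, 4 were above 0.25 on both arrays.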
